A study of Sus scrofa with 8 samples.

Results

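The proteasome genes of piglet back muscle were examined in animals given melatonin and in animals given saline. A gene was included when its symbol in the deposited table began with PSM, a letter from A to G and a digit. This matched 44 of 23235 genes, and 43 of them averaged at least 1 FPKM (fragments scaled for transcript length and library size) over the 8 libraries. The exception was PSMC3IP at 0.271 to 0.569 FPKM, which encodes a recombination factor that binds PSMC3 and is no proteasome subunit. PSME3IP1, a binding partner of the activator PSME3, matched by its symbol and is counted apart. The other 42 were 7 core particle alpha genes, 5 core particle beta genes, 6 ATPases and 11 non-ATPases of the regulatory particle, 5 genes of the immunoproteasome, and 8 assembly factors, other activators and inhibitors. The standard beta subunit PSMB5, the alpha subunit variant PSMA8 and the assembly factor PSMG4 were not analysed here.

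The proteasome is the main protease for intracellular proteins marked with ubiquitin. Its barrel-shaped core particle has outer rings of alpha subunits, which gate the entrance, and inner rings of beta subunits, some of which cut protein chains. The regulatory particle caps the barrel: its non-ATPase subunits bind ubiquitin and remove it, and its ring of ATPases unfolds the substrate and feeds it in. Interferon-gamma exchanges the cutting subunits for PSMB8, PSMB9 and PSMB10, which form the immunoproteasome that makes peptides for antigen presentation. In skeletal muscle this system carries out much of the breakdown of contractile proteins in fasting and disuse.

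Both groups were Duroc x Landrace x Yorkshire piglets that were weaned, 28 days old at the start, given 5 days of adaptation and fed the same basal diet. The tested animals received melatonin at 5 mg per kg body weight in 10 mL of sterile saline by gavage daily for 23 days, and the controls received saline alone. Of 6 piglets in each group, 4 libraries per group were analysed, made from polyadenylated RNA of a long back muscle, the longissimus dorsi. The labels give a replicate number and no animal, so p-values measure the spread between these libraries.

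Total counts ran from 53471667 to 60629098, and counts of the 43 genes ran from 126 to 16507 per library. The muscle label matched its markers: actin ACTA1 lay between 49047 and 74673 FPKM in all 8 libraries. The fibroblast markers stood apart in melatonin replicates 1 and 3, where their 5 genes summed to 4902 and 1614 FPKM, against 550 and 534 FPKM in melatonin replicates 2 and 4 and 387 to 767 FPKM in controls. Values below are FPKM by replicate number. A fold change is given on the log2 scale as melatonin over control, with the SE of edgeR's quasi-likelihood test on TMM-scaled counts, and p-values were adjusted over 9821 genes. The 3 adipocyte markers, of which 1 was at 0 in some libraries, summed to 1.37 to 97.8 FPKM after melatonin and 1.32 to 39.5 FPKM in controls, and the part of these cells in the values below was not tested.

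Within the assembled complex the subunits are present in equal numbers, but their FPKM levels were unequal. The ATPase PSMC5 (ENSSSCG00000017287, Sscrofa11.1 chromosome 12, 15101859 to 15106213) had the highest mean of all, 107 FPKM over the 8 libraries. PSMC4, the lowest ATPase, averaged 16.3 FPKM, so the ATPases spanned 6.54-fold. The beta genes spanned 21.7-fold, with PSMB4 at 89.8 FPKM and PSMB2 at 4.14 FPKM. The alpha genes spanned 13.1-fold, with PSMA7 at 77.9 FPKM and PSMA4 at 5.97 FPKM. Non-ATPases lay closer together, between PSMD1 at 14.9 FPKM and the ubiquitin receptor PSMD4 at 72.0 FPKM. Immunoproteasome genes were low: PSME1 averaged 13.7 FPKM, and PSMB10, the lowest of all 43, averaged 2.55 FPKM. Levels depend on the gene models used for length, and the beta and alpha pairs named here lay closer in counts. In melatonin replicate 1, PSMB4 had 4590 counts and PSMB2 1561, and PSMA7 had 5507 and PSMA4 2155. The part of model length in these spans was not tested. Of the 44 genes, 18 overlap another model. PSMD1 overlaps a small nuclear RNA model on its own strand, and the others overlap an opposite-strand model.

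**Figure D1:**
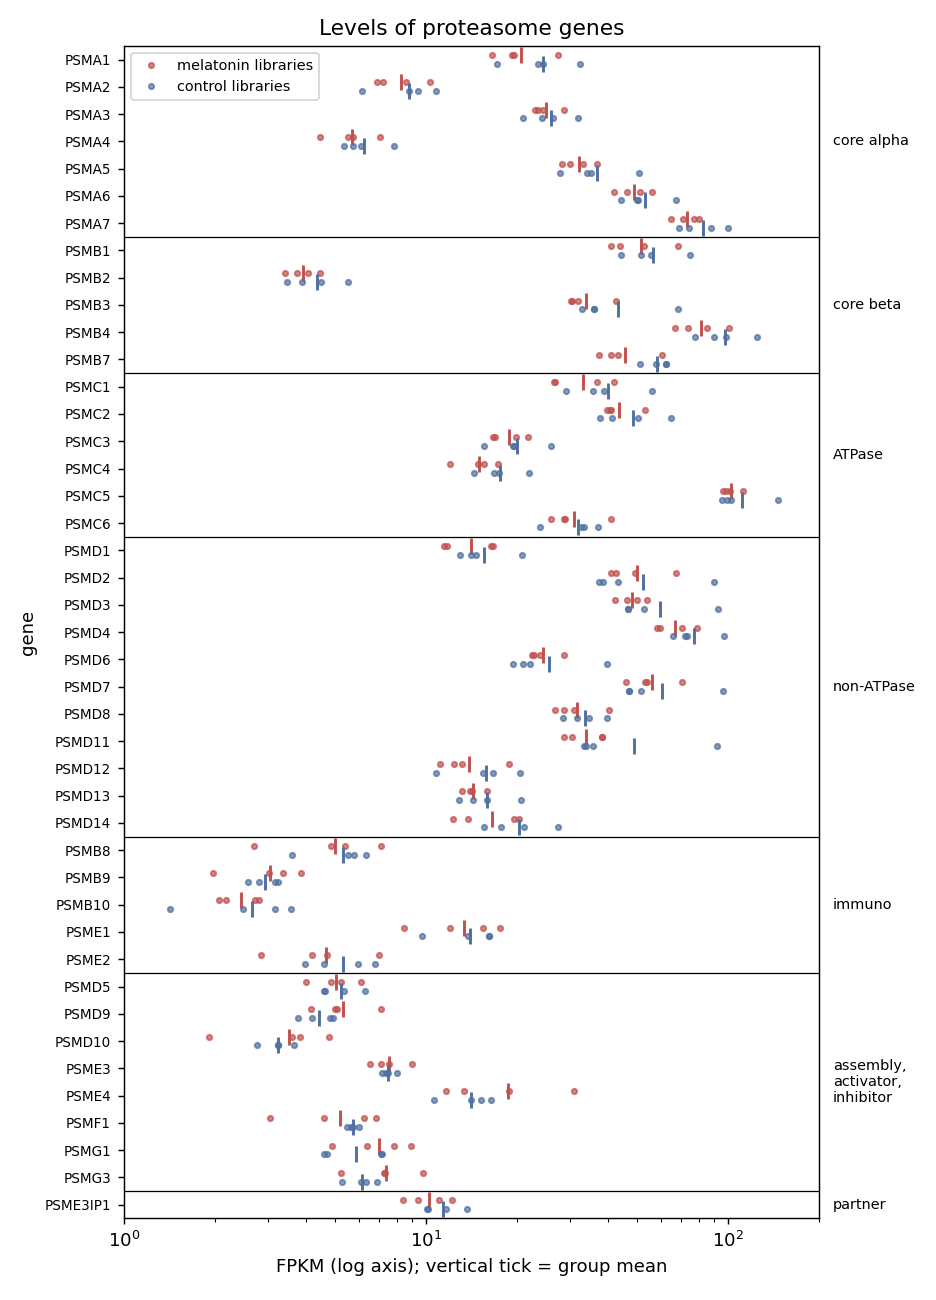
FPKM of the 43 proteasome genes on a log axis, with one point per library, melatonin above control for each gene, and a vertical tick at each group mean. Genes of one class differ in level by far more than the groups do, and in the regulatory particle a single control point lies to the right for PSMD2, PSMD3, PSMD6, PSMD7 and PSMD11.

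The comparison asks whether daily melatonin alters expression of the degradation machinery in muscle. The standard subunits lay slightly below control: all 12 core genes and all 17 regulatory particle genes had a fold change below 0, with medians of -0.23 and -0.22. All 5 immunoproteasome genes were also below 0, with a median of -0.17, while 5 of the 8 assembly, activator and inhibitor genes were above 0, with a median of 0.10. In all, 38 of 43 were below 0 with TMM scaling, against 50.2% of tested genes, and 36 of 43 were below 0 with total-count scaling, against 37.6% of tested genes. The median was -0.21 for the 43 genes and -0.00 for all tested genes. Of 7 myofibre markers, 6 were also below 0, with a median of -0.21, and 0 passed an unadjusted p of 0.05 in edgeR. Their median deviation from the control mean on the TMM scale was -0.53, 0.10, -0.54 and 0.15 in melatonin replicates 1 to 4. For the 43 proteasome genes it was -0.38, -0.19, -0.12 and -0.08. Melatonin replicate 1 was thus the lowest for the proteasome genes, while replicates 1 and 3 were both low for the myofibre markers. The part of fibre content in the proteasome values was not tested. No gene passed the adjusted threshold: edgeR called 0 of 9821 genes, a background of 0.00%, and 0 of 43 proteasome genes, the smallest adjusted p among them being 0.440. DESeq2 called 65 genes, or 0.662%, and again 0 of the 43, and at an unadjusted p under 0.05 it put 3 of 43 lower, against 4.69% of all genes. At an unadjusted p under 0.05 edgeR put 3 of 43 lower, PSMB7, PSMB4 and PSMC4, against 3.84% of all genes, and 0 of 43 higher, against 6.67% of all genes. PSMB7 stayed under that p with any 1 library left out. PSMB4 did not without melatonin replicate 1 or 2 or control replicate 3 or 4. With 1 library left out, PSMC4 stayed under it only when that was melatonin replicate 4. With total counts alone as the scaling, 0 of 43 were lower at that p, and over all genes 169 were lower and 612 higher, against 377 lower and 655 higher with TMM. The groups overlapped in FPKM for all 43 genes, where 1.07% of tested genes were lower and 1.13% higher without overlap. Whether a muscle held less of an RNA per cell or fewer cells that make it cannot be told apart in such bulk samples.

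**Figure D2:**
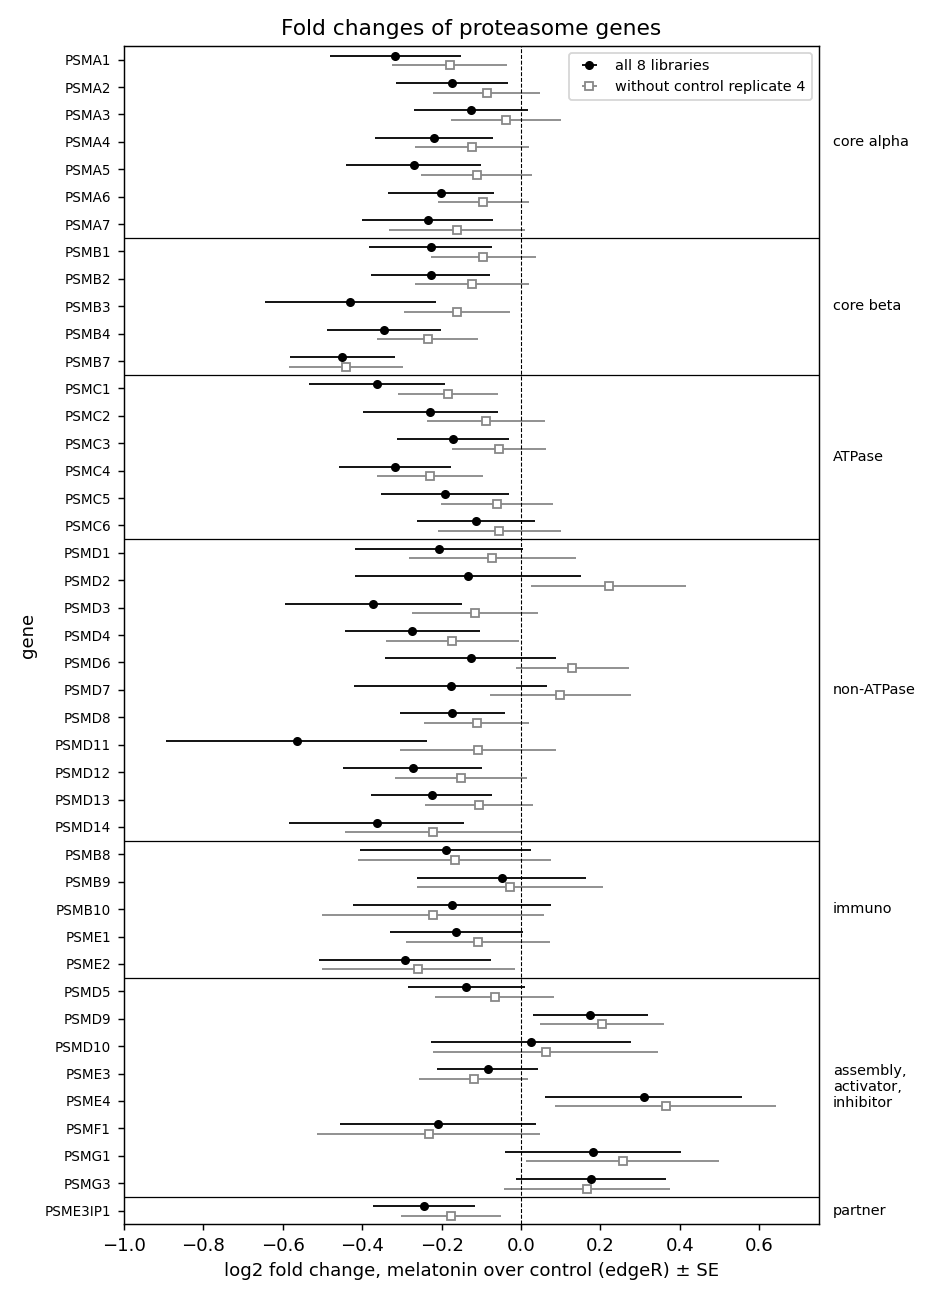
log2 fold change of each proteasome gene, melatonin over control, with its SE from edgeR, for all 8 libraries (filled) and without control replicate 4 (open). Most filled points lie between -0.5 and 0, and without that library the regulatory particle genes move towards 0 or past it while PSMB7 stays at -0.44.

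Alpha subunits form the outer rings of the core and its gate. PSMA1 measured 19.7, 19.2, 27.3 and 16.6 FPKM in melatonin replicates 1 to 4, against 24.4, 17.2, 23.6 and 32.3 FPKM in control replicates 1 to 4. Control replicate 4 was the highest and melatonin replicate 3 the second, and the other 6 libraries overlapped. Its log2 fold change was -0.32 ± 0.16 (edgeR adjusted p = 0.521). PSMA5 measured 29.9, 33.0, 37.0 and 28.2 FPKM after melatonin and 35.1, 27.7, 34.2 and 50.6 FPKM in controls, a log2 change of -0.27 ± 0.17 (edgeR adjusted p = 0.570). Here too only control replicate 4 stood above the melatonin range. The other alpha genes, PSMA2, PSMA3, PSMA4, PSMA6 and PSMA7, had fold changes from -0.24 to -0.12, and control replicate 4 was the highest library for all 7. The model of PSMA1 overlaps 77970 bases of PDE3B, a phosphodiesterase gene on the opposite strand at a mean of 0.47 FPKM.

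Beta subunits form the inner rings, and PSMB7 supplies the cutting site with trypsin-like activity. PSMB7 (ENSSSCG00000005590, chromosome 1, 265172237 to 265235387) measured 43.4, 37.3, 60.3 and 40.9 FPKM after melatonin and 62.1, 51.0, 57.6 and 62.5 FPKM in controls. Melatonin replicates 1, 2 and 4 lay below every control, and melatonin replicate 3 lay within the control range. The means were 45.5 ± 10.2 and 58.3 ± 5.34 FPKM (SD, n = 4 each), and the log2 fold change was -0.45 ± 0.13 (edgeR adjusted p = 0.440, DESeq2 adjusted p = 0.0956), the smallest p of the 43. Without control replicate 4 it was nearly the same, at -0.44 ± 0.14 (edgeR adjusted p = 0.465). PSMB4, a structural beta subunit, measured 85.1, 67.0, 101 and 73.8 FPKM after melatonin and 89.8, 77.9, 98.6 and 125 FPKM in controls, a log2 change of -0.34 ± 0.14 (edgeR adjusted p = 0.461). PSMB3, also structural, measured 31.9, 30.4, 42.7 and 30.2 FPKM after melatonin and 36.0, 32.8, 35.9 and 68.1 FPKM in controls. Its fold change of -0.43 ± 0.22 (edgeR adjusted p = 0.507) became -0.16 ± 0.13 without control replicate 4 (edgeR unadjusted p = 0.263). PSMB1 and PSMB2 both had -0.23. A gene with no symbol in the table, described there as subunit beta 6 and so not counted among the 43, measured 50.7, 52.9, 70.5 and 52.0 FPKM after melatonin and 65.2, 54.3, 60.2 and 71.6 FPKM in controls (-0.23 ± 0.14, edgeR adjusted p = 0.562). An unnamed gene described as assembly chaperone 2 averaged 4.91 ± 0.910 FPKM after melatonin and 6.12 ± 0.989 FPKM in controls (-0.39 ± 0.18, edgeR adjusted p = 0.490, n = 4 each).

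The ATPases PSMC1 to PSMC6 form the unfolding ring. PSMC4 measured 15.6, 12.0, 17.3 and 14.8 FPKM after melatonin and 17.5, 14.5, 16.8 and 21.9 FPKM in controls, a log2 change of -0.32 ± 0.14 (edgeR adjusted p = 0.473). Melatonin replicate 2 was the lowest and control replicate 4 the highest, with the other 6 libraries interleaved. PSMC1 measured 37.0, 26.6, 42.1 and 26.8 FPKM after melatonin and 35.8, 29.0, 38.8 and 56.3 FPKM in controls (-0.36 ± 0.17, edgeR adjusted p = 0.490). PSMC2, PSMC3, PSMC5 and PSMC6 had fold changes from -0.23 to -0.11. For PSMC5 the melatonin libraries measured 96.6 to 112 FPKM and the first 3 controls 95.4 to 103 FPKM, with control replicate 4 at 147 FPKM.

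Non-ATPase subunits make up the lid and base of the regulatory particle, and for these genes control replicate 4 stood furthest apart. PSMD11, a lid subunit (ENSSSCG00000017731, chromosome 12, 42498941 to 42529805), measured 28.6, 30.5, 38.4 and 38.3 FPKM after melatonin and 33.9, 33.4, 35.8 and 91.9 FPKM in controls. The first 3 controls lay inside the melatonin range. The fold change was -0.56 ± 0.33 (edgeR adjusted p = 0.545) and -0.11 ± 0.20 without that library (edgeR unadjusted p = 0.597). PSMD3, a further lid subunit, measured 46.5, 42.4, 53.8 and 50.0 FPKM after melatonin and 46.5, 46.7, 52.6 and 92.7 FPKM in controls, and its fold change of -0.37 ± 0.22 (edgeR adjusted p = 0.558) became -0.12 ± 0.16 without control replicate 4. PSMD2, the large base scaffold and a ubiquitin receptor, measured 40.9, 42.6, 67.3 and 49.3 FPKM after melatonin and 37.3, 38.7, 43.2 and 90.1 FPKM in controls. Its sign turned without that library, with -0.13 ± 0.28 over all libraries and 0.22 ± 0.20 without it. PSMD6 (-0.13 over all, 0.13 without) and PSMD7 (-0.18 over all, 0.10 without) turned in the same way. PSMD14, the enzyme that strips ubiquitin from the substrate, measured 13.8, 12.3, 20.4 and 19.5 FPKM after melatonin and 21.1, 15.5, 17.7 and 27.3 FPKM in controls (-0.36 ± 0.22, edgeR adjusted p = 0.561). PSMD1, PSMD4, PSMD8, PSMD12 and PSMD13 had fold changes from -0.27 to -0.17.

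The level of the standard proteasome was therefore described with and without control replicate 4. Summed over the 17 regulatory particle genes, FPKM was 571, 545, 736 and 601 after melatonin and 608, 548, 632 and 989 in controls. The mean was 613 ± 85.0 FPKM after melatonin (SD, n = 4), against 694 ± 200 FPKM in all controls (SD, n = 4) and 596 ± 43.4 FPKM in the first 3 (SD, n = 3). With TMM scaling and without control replicate 4, 14 of these 17 genes still had a fold change below 0, with a median of -0.11. The direction without that library thus differed between summed FPKM and TMM-scaled fold changes. The 12 core genes summed to 433, 381, 514 and 392 FPKM after melatonin and 466, 401, 489 and 636 FPKM in controls, with 452 ± 45.9 FPKM in the first 3 controls. On the TMM scale, the median of the 43 genes lay at -0.38, -0.19, -0.12 and -0.08 against the control mean in melatonin replicates 1 to 4, and at -0.09, -0.10, -0.10 and 0.26 in control replicates 1 to 4. Melatonin replicate 1 was the lowest library and control replicate 4 the highest. Without control replicate 4 the median fold change was -0.11 in place of -0.21, with 35 of 43 below 0, against 48.5% of tested genes, and 1 of 43, PSMB7, lower at an unadjusted p under 0.05 in edgeR, against 4.64% of tested genes, with 0 of 43 higher, against 5.55%.

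Control replicate 4 held more RNA of the standard subunits than the other controls, which had also received saline. It was the highest of all 8 libraries in FPKM for 29 of 43 genes, against 17.0% of tested genes: for 12 of 12 core genes, 15 of 17 regulatory particle genes, 0 of 5 immunoproteasome genes and 1 of 8 assembly, activator and inhibitor genes. Among the 4 controls it was the highest for 35 of 43, against 38.8% of tested genes, and on TMM-scaled counts it was the highest of 8 for 30 of 43, against 17.4%. On the TMM scale it exceeded the mean of the other 3 controls by a median of 0.35 over the 43 genes and by a median of 0.50 over the 11 non-ATPases, with a median of -0.00 over all genes. PSMD11 was 2.49-fold above the other controls and ranked 80 of 9821 genes by this difference, and PSMD2 was 2.12-fold above them at rank 150. At least 1.5-fold differences were reached by 7 of 43 genes and by 8.42% of all genes. The same library was the highest of 8 in FPKM for 12 of 16 partners of the proteasome and for 3 of 7 genes that control proteasome gene expression, against 17.0% of tested genes. Among the other partners, it was the lowest of 8 for ZFAND5, at 50.4 FPKM, and PITHD1, at 16.2 FPKM. The scaffold protein gene ECPAS measured 42.2 FPKM there, against 22.3, 23.8 and 23.3 FPKM in control replicates 1 to 3. NPLOC4, an adaptor of the VCP segregase that extracts ubiquitinated proteins, measured 16.7, 14.4, 17.4 and 16.4 FPKM after melatonin and 14.7, 14.8, 15.3 and 37.9 FPKM in controls. ADRM1, a ubiquitin receptor of the regulatory particle, measured 15.0, 11.8, 16.9 and 18.3 FPKM after melatonin and 18.5, 20.5, 17.8 and 36.7 FPKM in controls (-0.65 ± 0.26, edgeR adjusted p = 0.453). Without control replicate 4 the ADRM1 value was -0.39 ± 0.21 (edgeR unadjusted p = 0.0967). NFE2L1 is a transcription factor known to raise proteasome genes when proteasome activity is short. Its RNA measured 33.5, 25.0, 29.3 and 33.4 FPKM in control replicates 1 to 4. NFE2L2, another of the 7 control genes, measured 13.4, 9.04, 15.0 and 18.5 FPKM there. The part of either factor in the subunit levels was not tested. In control replicate 4 the 8 leukocyte markers summed to 21.7 FPKM, the highest control. The 5 fibroblast markers summed to 478 FPKM and the 7 myofibre markers to 107754 FPKM, both within the range of the other controls. The part of leukocytes in the subunit levels was not tested.

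**Figure D3:**
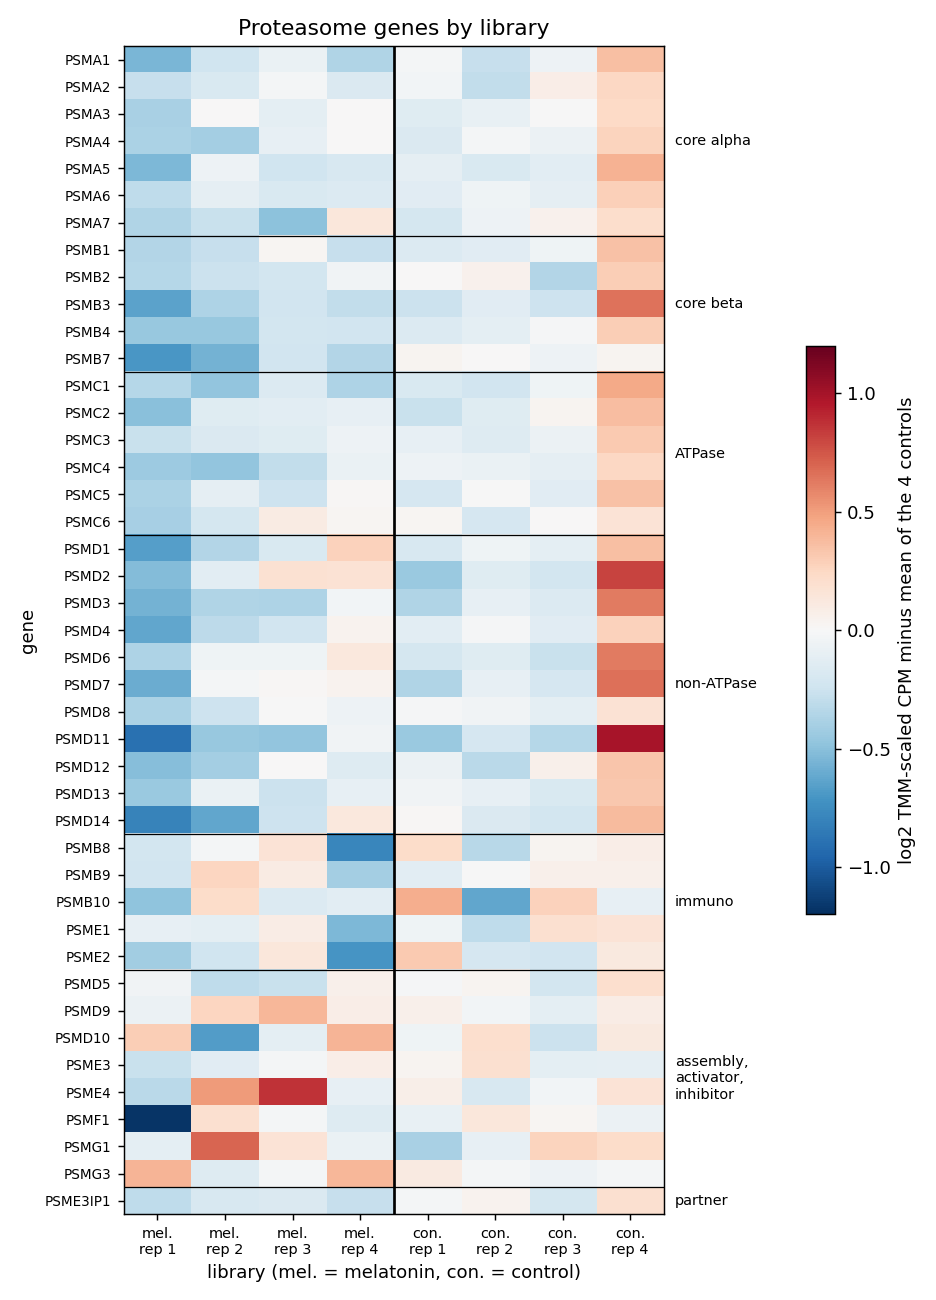
log2 TMM-scaled CPM (counts scaled to library size) of the 43 proteasome genes in each library, minus the mean of the 4 controls (red above, blue below). Control replicate 4 is red across the core and regulatory particle genes except PSMB7, melatonin replicate 1 is blue there, and the immunoproteasome genes follow a different order, with most low values in melatonin replicate 4 and control replicate 2.

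The immunoproteasome genes did not share that order of libraries. PSMB8 (chromosome 7, 25058892 to 25062245), which replaces PSMB5, measured 5.38, 4.87, 7.08 and 2.71 FPKM after melatonin and 6.34, 3.60, 5.52 and 5.81 FPKM in controls, a log2 change of -0.19 ± 0.22 (edgeR adjusted p = 0.747). PSMB9, its neighbour in the swine major histocompatibility complex (25062367 to 25077523), replaces beta 6 and measured 3.03, 3.36, 3.85 and 1.97 FPKM after melatonin and 2.81, 2.57, 3.17 and 3.23 FPKM in controls. Its fold change was -0.05 ± 0.21 with TMM scaling (edgeR adjusted p = 0.941) and 0.05 with total-count scaling. PSMB10 on chromosome 6, which replaces PSMB7, measured 2.17, 2.80, 2.73 and 2.06 FPKM after melatonin and 3.58, 1.43, 3.16 and 2.48 FPKM in controls (-0.17 ± 0.25, edgeR adjusted p = 0.808). Melatonin replicate 4 was the lowest library for 4 of these 5 genes and control replicate 2 for PSMB10. In FPKM, melatonin replicate 3 was the highest of the melatonin libraries for PSMB8, PSMB9, PSME1 and PSME2. The standard subunits shared this last trait, with 11 of 12 core genes and 16 of 17 regulatory particle genes, against 41.3% of tested genes. Over all 43 genes melatonin replicate 4 was the lowest library for 9, against 21.5% of tested genes, and control replicate 2 for 13, against 29.1%.

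PSME1 and PSME2 encode the subunits of the interferon-induced ring that opens the core without ubiquitin or ATP. PSME1 measured 15.5, 12.0, 17.7 and 8.45 FPKM after melatonin and 13.8, 9.72, 16.2 and 16.2 FPKM in controls (-0.16 ± 0.17, edgeR adjusted p = 0.722). PSME2 measured 4.71, 4.19, 6.98 and 2.86 FPKM after melatonin and 6.80, 3.97, 4.61 and 5.95 FPKM in controls (-0.29 ± 0.22, edgeR adjusted p = 0.617). The groups overlapped for both. PSME2 lies wholly inside the model of RNF31, a ubiquitin ligase gene on the opposite strand at 5.34 FPKM, and PSMB9 overlaps 12073 bases of the peptide transporter gene TAP1 at 4.38 FPKM. The library preparation was stranded, but the strand setting of the counting is not given in the sources used here. Whether the counts kept the reads of these pairs apart is thus not known.

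Summed over the 5 genes, immunoproteasome FPKM was 30.8, 27.2, 38.3 and 18.0 after melatonin and 33.3, 21.3, 32.6 and 33.6 in controls. The 8 leukocyte markers, the cells in which immunoproteasomes are standard, summed to 29.0, 19.5, 27.6 and 9.71 FPKM after melatonin and 18.7, 8.97, 13.3 and 21.7 FPKM in controls. Of these 8, none was at 0, and PTPRC, the pan-leukocyte phosphatase CD45, measured 0.76 to 1.67 FPKM after melatonin and 0.491 to 1.46 FPKM in controls. Melatonin replicate 4 and control replicate 2 were thus the lowest library of their group for both sums. Control replicate 2 was also the lowest control for the core and regulatory particle sums, at 401 and 548 FPKM. The TMM scaling factors of melatonin replicate 4 and control replicate 2, 0.866 and 0.851, were the lowest of the 8 libraries. On the TMM scale the immunoproteasome median was still lowest of each group there, at -0.54 and -0.30 against the control mean. The part of leukocytes in the immunoproteasome values was not tested. Among 11 interferon and antigen-processing genes, 5 were below 0 and 6 above, with a median of 0.12 and 0 past an unadjusted p of 0.05 in edgeR. NLRC5, the transactivator of class I genes, measured 1.66, 2.82, 2.38 and 2.03 FPKM after melatonin and 3.37, 1.98, 3.74 and 3.30 FPKM in controls (-0.51 ± 0.23, edgeR adjusted p = 0.478). The peptidase ERAP1 had -0.43 ± 0.28 (edgeR adjusted p = 0.577).

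**Figure D4:**
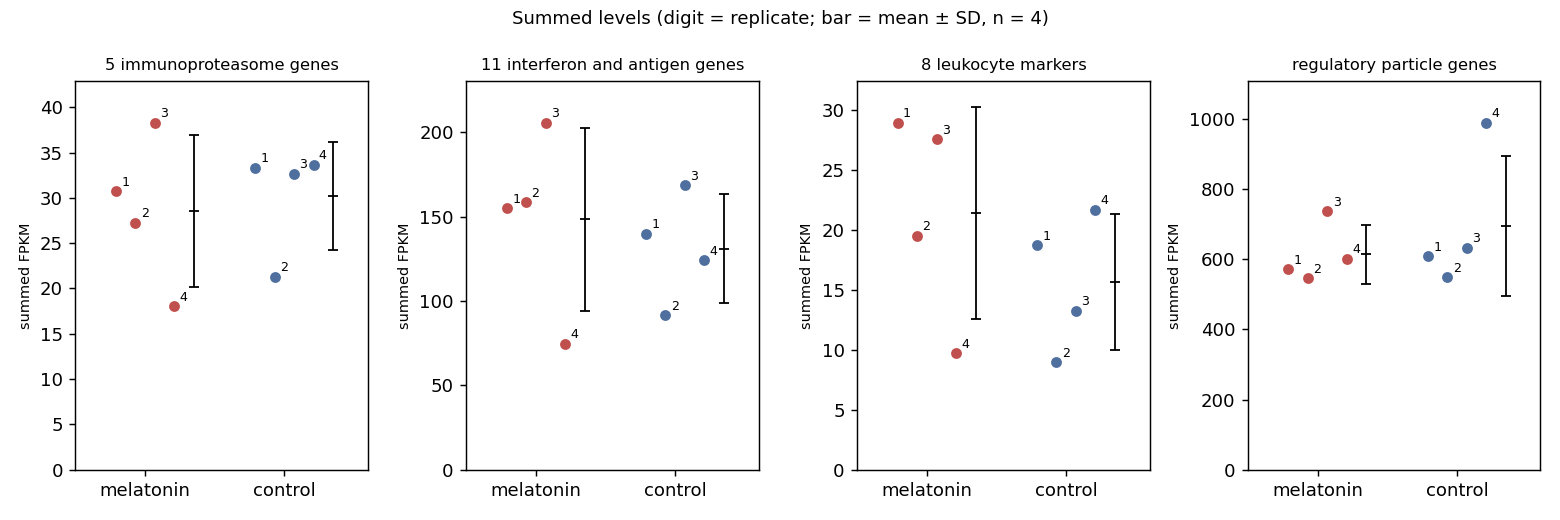
Summed FPKM per library of the 5 immunoproteasome genes, 11 interferon and antigen-processing genes, 8 leukocyte markers and 17 regulatory particle genes, with the mean ± SD of each group (n = 4). Melatonin replicate 4 is lowest of its group in the first 3 panels and control replicate 2 is lowest of its group in every panel. Control replicate 4 stands apart in the last at 989 FPKM.

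Other activators, the inhibitor and the assembly factors varied gene by gene. PSME4 encodes the large single-chain activator PA200 of the nucleus (ENSSSCG00000008412, chromosome 3, 87231755 to 87337703). It measured 13.4, 18.9, 30.8 and 11.6 FPKM after melatonin and 15.3, 10.7, 14.1 and 16.4 FPKM in controls, so that melatonin replicates 2 and 3 lay above every control and replicates 1 and 4 within the control range. The fold change was 0.31 ± 0.25 (edgeR adjusted p = 0.642), and 0.07 without melatonin replicate 3. PSME3, the nuclear relative of PSME1 and PSME2, measured 7.53, 6.54, 9.01 and 7.13 FPKM after melatonin and 8.02, 7.51, 7.17 and 7.36 FPKM in controls (-0.08 with TMM scaling, 0.01 with total-count scaling). PSMF1, an inhibitor of the core, measured 3.06, 6.22, 6.84 and 4.60 FPKM after melatonin and 5.64, 5.49, 6.01 and 5.74 FPKM in controls, with melatonin replicate 1 below all others (-0.21 ± 0.25, edgeR adjusted p = 0.759).

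PSMD9, an assembly chaperone of the ATPase ring, measured 5.06, 5.01, 7.08 and 4.16 FPKM after melatonin and 4.82, 3.77, 4.19 and 4.94 FPKM in controls (0.17 ± 0.14, edgeR adjusted p = 0.655). Its partners PSMD5 and PSMD10 had -0.14 and 0.03. Melatonin replicate 2 held the lowest PSMD10 value, 1.91 FPKM, against 2.77 to 3.67 FPKM in controls. PSMG1 and PSMG3, chaperones of the alpha ring, both had 0.18. POMP, the maturation factor of the core, measured 15.3, 12.5, 16.7 and 11.8 FPKM after melatonin and 15.8, 12.0, 14.9 and 21.2 FPKM in controls (-0.27 ± 0.14, edgeR adjusted p = 0.526), with control replicate 4 highest as for the core subunits.

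The levels of PSME4 were set beside those of ZFAND5, FBXO32, TRIM63 and NFE2L1. ZFAND5, a zinc-finger protein known in mouse muscle to stimulate the proteasome during atrophy, measured 109, 203, 223 and 63.8 FPKM after melatonin and 72.7, 64.0, 84.3 and 50.4 FPKM in controls. Melatonin replicates 1, 2 and 3 lay above every control and replicate 4 did not, and the log2 fold change was 1.04 ± 0.35 (edgeR adjusted p = 0.440, DESeq2 adjusted p = 0.117). The muscle ubiquitin ligase FBXO32 measured 13.5, 25.4, 55.6 and 8.91 FPKM after melatonin and 9.58, 6.39, 11.2 and 12.3 FPKM in controls (1.26 ± 0.45, edgeR adjusted p = 0.446), and TRIM63 measured 78.6, 142, 322 and 72.1 FPKM after melatonin and 74.0, 69.1, 96.7 and 38.9 FPKM in controls (1.00 ± 0.44, edgeR adjusted p = 0.473). Without melatonin replicate 3 the fold change was 0.71 for FBXO32 (edgeR unadjusted p = 0.0688) and 0.49 for TRIM63 (edgeR unadjusted p = 0.207). NFE2L1 measured 34.9, 36.0, 52.9 and 28.0 FPKM after melatonin (0.23 ± 0.16, edgeR adjusted p = 0.586). In FPKM, for all 5 genes, PSME4 included, melatonin replicate 3 was the highest and replicate 4 the lowest of the melatonin libraries, and replicate 2 was the second. Melatonin replicate 3 was the highest of its group in FPKM for 41.3% of tested genes and for 36 of the 43 proteasome genes. This order depends on the scaling. On the TMM scale the median of the 43 genes was -0.12 in melatonin replicate 3 and -0.08 in replicate 4. PSME4 was there lowest in melatonin replicate 1, at -0.33, with replicate 4 at -0.10. These 5 genes were set together after their values were seen.

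**Figure D5:**
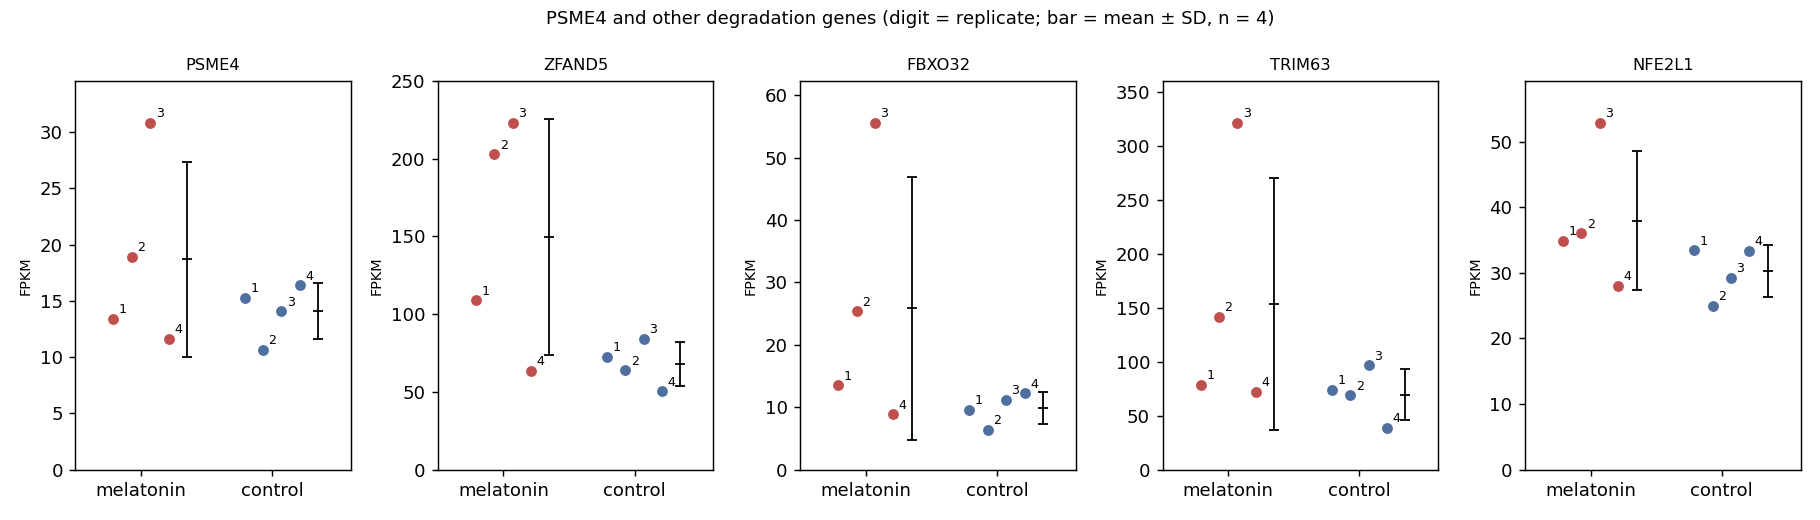
FPKM per library of PSME4, ZFAND5, FBXO32, TRIM63 and NFE2L1, with the digit giving the replicate and bars the mean ± SD (n = 4). In each panel melatonin replicate 3 is the highest of the melatonin group and replicate 4 the lowest, within the control range.

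By list, 16 partners of the proteasome were tested, of which 14 were below 0, against 50.2% of tested genes, with a median of -0.08. At an unadjusted p under 0.05 in edgeR 1 was lower, ADRM1, against 3.84% of tested genes, and 1 was higher, ZFAND5, against 6.67%. Without control replicate 4, 9 of 16 were below 0, against 48.5% of tested genes, and 0 were lower at that p, against 4.64%. The 7 genes that control proteasome gene expression gave 3 below 0 and 0 past that p. Atrophy ligases had 5 of 7 above 0, with FBXO32, TRIM63 and FBXO30 higher and TRIM54 lower at an unadjusted p under 0.05, against 6.67% higher and 3.84% lower among tested genes. TRIM63 was no longer past that p when control replicate 1, 2 or 4 or melatonin replicate 2 or 3 was left out (0.79 and edgeR unadjusted p = 0.117 without control replicate 4), and FBXO32 was not without melatonin replicate 3 or control replicate 2. The calls of ZFAND5, FBXO30 and TRIM54 at that p held with any 1 library left out, and that of ADRM1 was lost without control replicate 2 or 4 or without melatonin replicate 1, 2 or 3. FBXO30 measured 4.58, 5.77, 7.79 and 1.87 FPKM after melatonin and 2.08, 1.96, 2.75 and 2.03 FPKM in controls (1.06 ± 0.31, edgeR adjusted p = 0.440). TRIM54 measured 19.0, 19.0, 28.9 and 24.7 FPKM after melatonin and 36.6, 32.1, 30.9 and 42.0 FPKM in controls (-0.70 ± 0.19, edgeR adjusted p = 0.440), a range below every control.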

How the data were processed

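Poly(A) RNA of the longissimus dorsi was sequenced in 4 melatonin and 4 control libraries after dUTP-based stranded preparation, per the labels' protocols. The deposited table holds, per the file headers, a raw count and an FPKM value for each gene and library, and FPKM was scaled by the authors for length and library. FastQC, StringTie, DESeq2 and Sscrofa11.1 are named in the submitters' processing notes with no role. For the aligner, annotation release and strand setting the sources used here say nothing.

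Genes with a mean of at least 1 FPKM over the 8 libraries were tested on counts in edgeR 4.0.16, run in R 4.3.3. Scaling was by TMM, and the legacy form of the quasi-likelihood F test compared melatonin over control without covariates, with Benjamini-Hochberg adjustment over 9821 genes and a threshold of 0.05. The SE is the size of the log2 fold change over the root of F. Depth was 53471667 to 60629098 counts per library, and the common biological coefficient of variation was 28.0%. No library was a duplicate of another: chi-square over its degrees of freedom was at least 75.8 for every pair. The test was checked on simulated counts, where its adjusted threshold recovered 4 of 50 genes changed 1.5-fold. It recovered 15 of 50 changed 2-fold and 48 of 50 changed 4-fold, with 4 false calls. Changes as small as 1.5-fold were thus rarely called.

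Genes given with all values were the 2 of each class with the smallest p, a set of catalytic and activator genes, and the 2 with the smallest p of each further list. PSMB3, PSMC5, PSMD2, PSMD14, PSME3, PSMF1, PSMD10, ECPAS, PITHD1 and NFE2L2 were added after their values were seen. The members, lists and rules were chosen with earlier results of these data known, so counts are descriptions. Alternatives were other scalings and filters, DESeq2 1.42.0, limma 3.58.1 on log2(FPKM + 1) or log2(FPKM + 0.1), the replicate number as a block, and libraries left out. Tables were made in Python 3.11.15 with pandas 2.3.3 and NumPy 2.4.6, and plots in Matplotlib 3.10.9. Sequences were not used here. One gene list is not reported here.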

Additional observations from a re-analysis of the deposited data

Results flagged for a closer look

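A library was singled out when its gap to the nearest library of its group took more of that group's range than Dixon's critical value allows. Of 114 groups of 4 libraries examined, 14 met this, and 9 of the 14 concerned control replicate 4. For independent groups chance gives about 1 group in 20. These genes were measured in the same 8 libraries, so the 14 groups cannot be judged by that rate. That library measured 91.9 FPKM for PSMD11 (next control 35.8), 90.1 FPKM for PSMD2 (43.2), 92.7 FPKM for PSMD3 (52.6), 39.6 FPKM for PSMD6 (22.0) and 96.0 FPKM for PSMD7 (51.6). It measured 68.1 FPKM for PSMB3 (36.0), 147 FPKM for PSMC5 (103), 36.7 FPKM for ADRM1 (20.5) and 37.9 FPKM for NPLOC4 (15.3). In the melatonin group, replicate 3 was apart for PSMC2 at 52.9 FPKM (next 41.1) and PSMB3 at 42.7 FPKM (31.9), and replicate 2 was low for the ubiquitin-conjugating enzyme UBE2D2 at 25.8 FPKM (next 30.5). Control replicate 3 was high for UBE2D2 at 32.8 FPKM (next 30.5) and for FBXO30 at 2.75 FPKM (2.08).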

How the results depend on the processing

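The 43 proteasome genes had 0 adjusted calls under every alternative run. Genes called over all 9821 were 0 to 15 when 1 library was left out (15 without melatonin replicate 4) and 65 in DESeq2. Genes of the 43 lower at an unadjusted p under 0.05 were 3 in edgeR, and 0 with total counts alone, 0 with limma on log2(FPKM + 1), 0 with limma on log2(FPKM + 0.1), 1 with a filter at 5 FPKM, 1 without melatonin replicates 1 and 3 together, 6 with the replicate block, and 1 to 6 with 1 library left out. That count was 1 when control replicate 4 or either of melatonin replicates 1 and 2 was left out, and 6 without melatonin replicate 4. Over all genes the share lower at that p was 3.84% with all libraries, 1.72% with total counts alone, 1.89% and 1.71% with limma at a pseudocount of 1 and of 0.1, 3.83% with the filter at 5 FPKM, 4.59% with the replicate block and 2.02% without melatonin replicates 1 and 3 together. It was 4.64% without control replicate 4, 3.21% without melatonin replicate 1, 2.64% without melatonin replicate 2 and 8.04% without melatonin replicate 4. The labels do not say whether same-numbered libraries were paired. Their deviations correlated at 0.18, 0.09, 0.14 and -0.05, with no other pairs set beside them, and the block gave 0 adjusted calls. With 1 library left out, the median was -0.24 to -0.11 over all 43 genes, -0.40 to -0.16 for core beta genes and -0.015 to 0.12 for assembly factors, activators and the inhibitor. For that last class it was 0.19 with total counts alone.

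Signs that turned with 1 library left out belonged to PSMD10 (-0.12 to 0.20), PSMF1 (-0.37 to 0.0087), PSMG1 (-0.030 to 0.28), PSMB9 (-0.17 to 0.053), PSMD2 (-0.27 to 0.22), PSMD6 (-0.22 to 0.13), PSMD7 (-0.29 to 0.10) and NPLOC4 (-0.55 to 0.015). Total counts alone turned PSMB9 (0.047) and PSME3 (0.0075), limma turned PSMB9 (0.019 at a pseudocount of 1, 0.016 at 0.1) and PSMD2 (0.0084 at 1, 0.0096 at 0.1), and the replicate block turned PSMD10 (-0.015). Without melatonin replicates 1 and 3 together, PSMD10 was -0.049 and PSMF1 0.022. The cause of these turns was not tested. Counts of the 43 genes were 126 or more per library.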

Other observations

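The share of immunoproteasome to standard catalytic subunits was low in FPKM in every library. Such shares depend on the gene models used for length. In melatonin replicate 1, PSMB10 had 391 counts and PSMB7 had 2537. PSMB10 was 5.01, 7.51, 4.53 and 5.04% of PSMB7 in FPKM in melatonin replicates 1 to 4, against 5.77, 2.80, 5.49 and 3.96% in control replicates 1 to 4. PSMB9 was 5.98, 6.35, 5.46 and 3.79% of the gene described as beta 6 after melatonin, against 4.32, 4.73, 5.26 and 4.51% in controls. Both shares overlapped between the groups. PSME1 exceeded PSME2 in every library, by 2.53-fold to 3.28-fold after melatonin and 2.03-fold to 3.51-fold in controls, although their proteins assemble into 1 ring. PSME4 exceeded PSME3 by 1.78-fold, 2.89-fold, 3.42-fold and 1.63-fold after melatonin and by 1.42-fold to 2.23-fold in controls.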
